A study of Mus musculus with 12 samples.

Results

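The axon guidance ligands and receptors are described here in mouse lung tumors and normal mouse lung. They were taken by a rule on gene symbols, chosen with earlier results of these data known. The set comprises the semaphorins, plexins, neuropilins 1 and 2, ephrins, Eph receptors, Slits 1 to 3, Robo1 to Robo3, the netrins, Dcc and the Unc5 receptors. It held 68 of the 30399 genes in the deposited table, and all 68 symbols of the annotation that met the rule were present. The 68 are 20 semaphorins (7 of class 3), 2 neuropilins, 9 plexins, 5 ephrin-A and 3 ephrin-B ligands, 9 EphA and 5 EphB receptors, 3 Slits, 3 Robos, 4 netrins, and Dcc with 4 Unc5 receptors. Of these, 67 had a mean normalized count of at least 1 and were tested. Ntn5 was below that limit, with 0 to 2.82 normalized counts in normal lung and 0 to 0.991 in tumors, all at or under the floor of 3 reads.

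The series profiled 5 samples labelled normal lung and 7 labelled tumor by poly-A RNA sequencing, in a study of mouse lung cancer models made by CRISPR/Cas9 mutagenesis without a virus. CRISPR/Cas9 is a nuclease that cuts DNA at a chosen site, and faulty repair of the cut can disable a gene. The labels give the tissue only. Genotype, strain, age, sex, the genes targeted and any treatment are not stated for either group, so what the groups share beyond the tissue is unknown. Tumors 3 and 4 share the title number 159, and tumors 5, 6 and 7 share 201, which leaves 4 distinct numbers among the 7 tumors. The labels do not say whether a number marks an animal, and p-values measure only the spread between these samples. The main fit treated the 7 tumors as independent, so its SEs and p-values may be too small if same-numbered tumors are related. The titles of tumors 1 and 7 hold a Spanish word for trachea and those of tumors 3 to 6 a word for lung.

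Axon guidance genes were named for their part in steering growing nerve fibers, and most of them also act outside the nervous system. Semaphorins signal through plexins, with neuropilins as co-receptors for most secreted class 3 members. Ephrins are bound to the cell surface and signal into neighboring cells that carry Eph receptor tyrosine kinases, and also back into their own cell. Secreted Slits act on Robo receptors, mainly as repellents, and netrins act on Dcc to attract and on Unc5 receptors to repel. In the lung, these systems are known for roles in branching, in blood and lymph vessels and in immune cells.

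The normal lungs had 11126432 to 17032234 gene-assigned reads each, and the tumors 13093843 to 24217633. The floor of 3 reads, used for values near 0, was worth at most 4.85 normalized counts in a normal lung and 3.57 in a tumor and covers counting error only. A normalized count is a read count divided by 1 size factor per sample, which does not correct for gene length. The tumors carried the markers of neuroendocrine cells: all 8 of that list, Chga and Insm1 among them, were higher in tumor, at a summed level of 231 to 292 per normal lung and 34114 to 137811 per tumor. All 10 endothelial markers were lower, at 72738 to 88024 and 2699 to 7529.8, and so were all 9 listed leukocyte markers and 7 of 8 lung epithelial markers. The lung epithelial sum was 275511 to 489748 per normal lung and 5559.7 to 17328 per tumor. The exception was Nkx2-1, a lineage factor of lung epithelium, which was not called. Nkx2-1 alone, at 4566 to 14594 per tumor and 7307 to 9000 per normal lung, made up most of the tumor sum. Of 8 fibroblast and mural markers, 3 were lower and 5 were not called. In bulk tissue, fewer cells of a type and less RNA per cell cannot be told apart.

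Most of the axon guidance genes differed between tumor and normal lung, and in both directions. A gene was called at a Benjamini-Hochberg adjusted p under 0.05 in limma together with a log2 fold change of 1 or more in size, where log2 fold changes are tumor minus normal lung on the log2(normalized count + 1) scale. By this rule 51 of the 67 tested members (76.1%) were called, against 48.5% of all 23674 genes tested. Of the 51, 22 were higher in tumor and 29 lower (background 24% and 24.5%), and 16 were not called. In 41 members (61.2%) the 7 tumors lay entirely above or below the 5 normal lungs, 19 above and 22 below, where 38.4% of all genes did so, 20.1% above and 18.4% below. The median log2 fold change was -0.25 over the members and 0.04 over all genes tested, and the median of its size was 2.62 over the members and 1.09 over all genes. Among the 34 tested ligands 8 were higher and 19 lower, and among the 33 receptors and co-receptors 14 were higher and 10 lower.

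**Figure D1:**
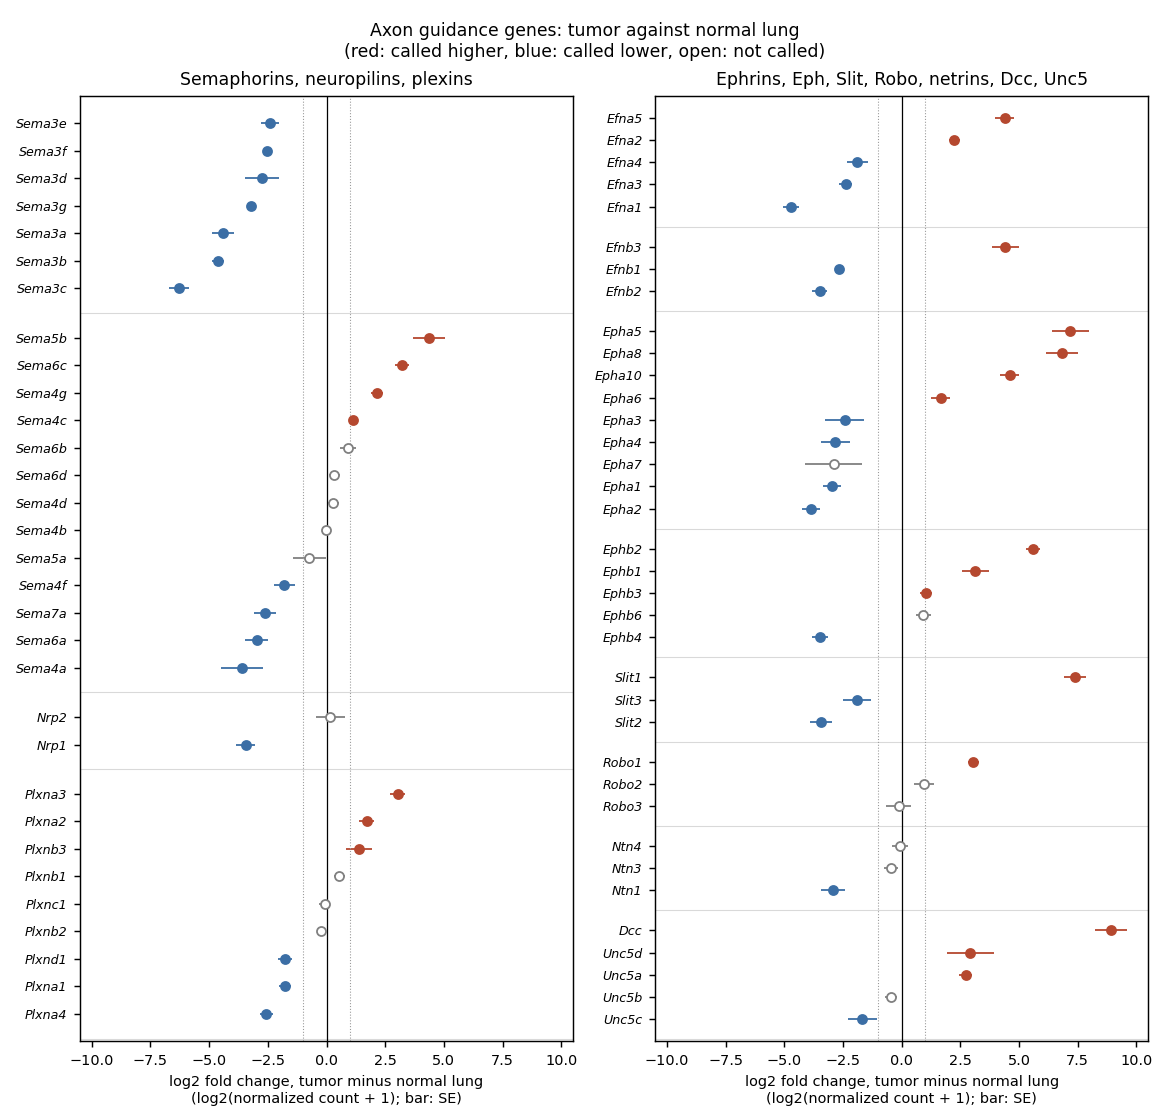
Log2 fold change of each tested member (x axis, tumor minus normal lung, on log2(normalized count + 1)) with its standard error as a bar, ordered by size within each family (y axis); filled red points were called higher in tumor, filled blue points lower, and open points were not called. All 7 class 3 semaphorins lie left of -1, while the Slit, ephrin and Eph families hold points on both sides.

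The split of the members into both directions was also seen with other fits. Count tests on the recovered reads, which leave out tumor 3 and so use 11 samples, called 24 members higher and 25 lower in edgeR (25.2% and 20.6% of all genes), and 25 and 27 in DESeq2 (24.6% and 20.5%). Averaging the tumors that share a title number gave 22 and 30 (22.9% and 25.3%), and the title number as a random effect gave 22 and 30 (23.2% and 24.4%). In that last fit the correlation between samples of the same title number, taken over all genes, was 0.304. With all columns scaled to equal totals 25 members were higher and 28 lower (27.5% and 21.7%). A further fit held the mean log2 level of 4 Y-linked genes as a covariate and is named where it ended a call. It moved 8 further called members by over 1.5 times without ending their calls: Efnb2 to -4.09, Efnb3 to 3.69, Ephb4 to -4.08, Ntn1 to -3.85, Sema3e to -1.69, Sema5b to 5.04, Sema6a to -3.64 and Sema7a to -3.26. All edgeR and DESeq2 values given for single genes are without tumor 3.

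The secreted class 3 semaphorins were lower in tumor without exception: all 7 were called lower, where 24.5% of all genes were, with log2 fold changes from -6.29 to -2.41. Sema3c, a ligand of neuropilins known from the development of the heart outflow tract and vessels, had the largest decrease of all members. It had normalized counts of 8672, 9270.0, 7047, 6751 and 9967 across normal lungs 1 to 5, and ran in the tumors from 44.1 to 302 around a median of 79.3. Every tumor lay below every normal lung, 62.5-fold lower on average, with a log2 fold change of -6.29 ± 0.43 (SE, with adjusted p = 4.56e-08 in limma). Sema3b, first studied as a candidate tumor suppressor in lung cancer, had normalized counts of 1496, 1562, 1710.4, 2037 and 1808 across normal lungs 1 to 5, and ran in the tumors from 37.7 to 123 around a median of 67.9. The Sema3b log2 fold change was -4.62 ± 0.26 (SE, with adjusted p = 7.91e-09 in limma). Sema3a, the classical repellent of growth cones, had normalized counts of 1331, 1362, 892, 1319 and 1608 across normal lungs 1 to 5, and ran in the tumors from 24.8 to 148 around a median of 54.8. The groups were again apart, and Sema3a changed by -4.39 ± 0.47 (SE, with adjusted p = 3.1e-06 in limma). Sema3g, a class 3 member known from endothelial cells, had normalized counts of 4823, 4673, 5469, 5225 and 7089.8 across normal lungs 1 to 5, and ran in the tumors from 407 to 790.3 around a median of 576. The SD among its tumors was 0.29 log2 units, and Sema3g changed by -3.20 ± 0.16 (SE, with adjusted p = 3.94e-09 in limma).

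The other class 3 members ran lower by smaller amounts. Sema3f, which signals through Nrp2, fell by 2.53 on the log2 scale, with a normal range of 2449 to 4317 against a tumor range of 461 to 689.7 (median 534). Sema3e, which binds plexin D1 without a neuropilin, had a normal range of 1731 to 2769 against a tumor range of 172 to 1111 (median 459), with a log2 fold change of -2.41. Sema3d was the only class 3 member whose groups overlapped, at a normal range of 113 to 233 against a tumor range of 1.98 to 162 (median 30.5). The overlap came from tumor 7. The Sema3d log2 fold change of -2.75 was -1.70 in edgeR on the recovered reads of 11 samples. Summed per kilobase of annotated exon, class 3 semaphorins were at 3723 ± 497 over the normal lungs (SD, n = 5), against 338 ± 41.2 over the tumors (SD, n = 7). The endothelial markers were lower in the same tumors, and their part in these decreases was not tested.

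The semaphorins of classes 4 to 7, which are bound to membranes, went both ways: 4 of 13 were called higher and 4 lower, 30.8% each way against 24% and 24.5% of all genes, and 5 were not called. Sema5b, a transmembrane member with thrombospondin repeats, had normalized counts of 7.74, 4.30, 3.23, 1.41 and 12.6 across normal lungs 1 to 5, and ran in the tumors from 38.1 to 496 around a median of 102. All tumors were above all normal lungs, and the log2 fold change was 4.35 ± 0.67 (SE, with adjusted p = 9e-05 in limma). Sema6c, a transmembrane member of the class that binds plexin A receptors, had normalized counts of 129, 96.8, 128, 84.6 and 208 across normal lungs 1 to 5, and ran in the tumors from 693 to 1871 around a median of 1107. It too separated the groups and changed by 3.20 ± 0.31 (SE, with adjusted p = 1.14e-06 in limma). Sema4g and Sema4c were the remaining called increases, with log2 fold changes of 2.14 and 1.13. Sema4c had a normal range of 617 to 800.1 against a tumor range of 1105 to 2247 (median 1587). Its annotated exons overlap another listed gene, D430040D24Rik, so its count is uncertain, and with the Y-linked expression level as a covariate its log2 fold change of 0.95 missed the limit.

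Among the decreases, Sema6a, a transmembrane ligand of plexins A2 and A4, had normalized counts of 2979, 2643, 2490.4, 2699 and 4009 across normal lungs 1 to 5, and ran in the tumors from 81.0 to 1003 around a median of 469. The log2 fold change of Sema6a was -2.97 ± 0.49 (SE, with adjusted p = 0.000169 in limma), and tumor 1 was the lowest sample. Sema7a, which is anchored by a lipid and acts on plexin C1 and integrins, had a normal range of 1304 to 2203 against a tumor range of 122 to 1109.9 (median 291). Its log2 fold change was -2.62, and the highest tumor value was that of tumor 7. Sema4f changed by -1.79, or -1.17 in edgeR. Sema4a, a member known from T cells and dendritic cells, is described with the variable genes. Sema6d, a ligand of plexin A1, was not called. It had normalized counts of 2789.5, 2561, 2408, 2113 and 2971 across normal lungs 1 to 5, and ran in the tumors from 1975 to 5259.6 around a median of 3350.0. Its groups shared part of their range, and the difference on the log2 scale was 0.33 ± 0.24 (SE, with adjusted p = 0.242 in limma). Sema4d, the ligand of plexin B1, had a normal range of 809.7 to 1882 against a tumor range of 1047 to 2858 (median 1251), and its log2 fold change of 0.27 was not called. Sema4b, Sema5a and Sema6b were not called either, at -0.04, -0.73 and 0.92. For Sema6b the fold change was just inside the limit and it was called in 6 of 23 alternatives, edgeR (1.07) and DESeq2 (1.02) among them. It was 0.21 with the Y-linked covariate and 0.64 with same-numbered tumors averaged.

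Of the neuropilins, Nrp1 was lower and Nrp2 was not called. Nrp1, co-receptor of Sema3a and of vascular endothelial growth factor, had normalized counts of 6099, 5716, 6210.0, 5191 and 8561 across normal lungs 1 to 5, and ran in the tumors from 271 to 1853 around a median of 456. The groups did not overlap and its log2 fold change was -3.44 ± 0.41 (SE, with adjusted p = 8.11e-06 in limma). Nrp2, co-receptor of Sema3f that also acts in lymphatic vessels, had 2476, 1712, 2027, 1322 and 2359 normalized counts over the 5 normal lungs (1 to 5 in order) and 305, 1536, 1609, 3380.3, 10657, 3584 and 2295 over the 7 tumors. Its tumors spanned the normal range, from the low value of tumor 1 to the high value of tumor 5, and the log2 fold change of 0.17 ± 0.63 (SE, with adjusted p = 0.83 in limma) changed sign under some alternatives (-0.93 to 0.94).

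Plexins, the signaling receptors for semaphorins, split within the A class. Plxna2 had normalized counts of 1444, 1306, 1101, 1075 and 1514 across normal lungs 1 to 5, and ran in the tumors from 2258 to 8161 around a median of 3855. All tumors were above all normal lungs, with a log2 fold change of 1.71 ± 0.30 (SE, with adjusted p = 0.000294 in limma). Plxna3 had normalized counts of 212, 111, 105, 87.5 and 161 across normal lungs 1 to 5, and ran in the tumors from 728 to 1919 around a median of 906. Plxna3 changed by 3.02 ± 0.31 (SE, with adjusted p = 1.92e-06 in limma). These are receptors that work with neuropilins or bind class 6 semaphorins directly. Their relatives Plxna4 and Plxna1 moved the other way. Plxna4 had a normal range of 1222 to 1751 against a tumor range of 154 to 578 (median 242), with a log2 fold change of -2.56. Plxna1 fell by 1.78 on the log2 scale, with a normal range of 699.7 to 2170.5 against a tumor range of 307 to 490.0 (median 392). The exons of Plxna1 overlap those of Gm26811. Plxnd1, the endothelial receptor of Sema3e, had a normal range of 1869 to 3228 against a tumor range of 396 to 1896 (median 677). It changed by -1.77, and tumor 7 alone reached the normal range.

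Of the B class, Plxnb2 had a normal range of 2684 to 4001 against a tumor range of 2338 to 3555 (median 2901), and its log2 fold change of -0.25 was not called. Plxnb1, the receptor of Sema4d, changed by 0.55 ± 0.24 (SE, with adjusted p = 0.0595 in limma) and was not called. The exons of Plxnb1 overlap those of Gm7628. Plxnb3 was called higher at 1.38, with a normal range of 5.64 to 28.4 against a tumor range of 12.9 to 139 (median 40.4), with groups that overlapped. That call was lost in 10 of 23 alternatives: without filtering, without the trachea-titled tumors, and without any 1 of normal lungs 2 to 5 or of tumors 1, 2, 4 and 7. Plxnc1, the receptor of Sema7a, had a normal range of 714 to 1016 against a tumor range of 382 to 1254 (median 885). The log2 fold change of Plxnc1 was -0.09 and was not called, and its sign changed with the scaling.

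**Figure D2:**
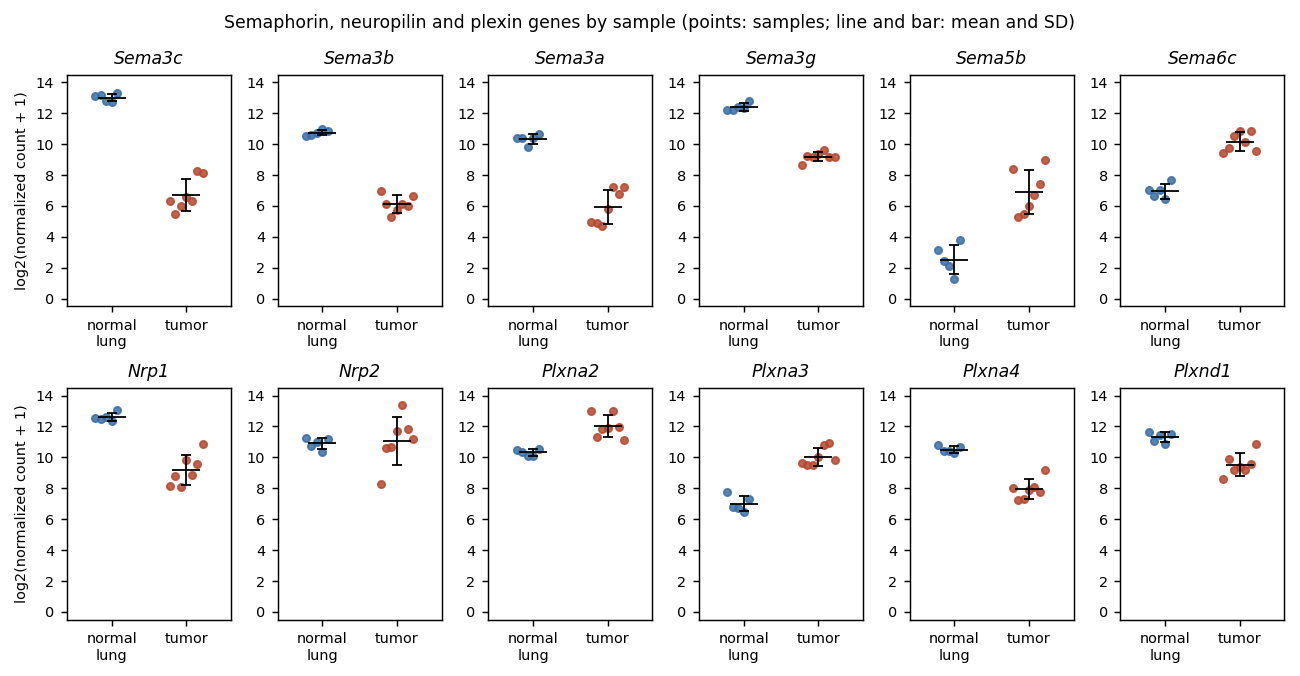
Log2(normalized count + 1) (y axis) of 12 semaphorin, neuropilin and plexin genes in the 5 normal lungs (blue) and 7 tumors (red); points are samples, and the line and bar give the mean and SD. The class 3 semaphorins and Nrp1 fall from normal lung to tumor, Sema5b, Sema6c, Plxna2 and Plxna3 rise, and the tumors of Nrp2 lie on both sides of normal lung.

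All 8 ephrins were called, where 48.5% of all genes were, and in all 8 the groups did not overlap, where 38.4% of all genes did not: Efna5, Efna2 and Efnb3 were higher and Efna1, Efna3, Efna4, Efnb1 and Efnb2 lower. Efna5, a lipid-anchored ligand known from the mapping of retinal axons, had normalized counts of 285, 227, 268, 233 and 387 across normal lungs 1 to 5, and ran in the tumors from 1522 to 10772 around a median of 7016. The tumors were 24.0-fold higher on average, with a log2 fold change of 4.40 ± 0.40 (SE, with adjusted p = 6.74e-07 in limma), and tumor 2 was the lowest of them. Efna1, a ligand of Epha2, had normalized counts of 1907, 2211, 2027, 3157 and 2062 across normal lungs 1 to 5, and ran in the tumors from 38.6 to 170.4 around a median of 88.3. Its log2 fold change was -4.70 ± 0.34 (SE, with adjusted p = 7.08e-08 in limma). Efna2 had a normal range of 72.0 to 93.1 against a tumor range of 209.7 to 561 (median 473), a log2 fold change of 2.25. Efna3 and Efna4 fell by 2.37 and 1.88 on the log2 scale. Exons of Efna4 overlap 4731419I09Rik.

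The transmembrane ephrin-B ligands repeated the split. Efnb3, known as a midline barrier to axons of the spinal cord, had normalized counts of 45.1, 26.9, 32.3, 18.3 and 50.6 across normal lungs 1 to 5, and ran in the tumors from 173 to 1912 around a median of 972. It changed by 4.42 ± 0.57 (SE, with adjusted p = 1.83e-05 in limma), and tumors 1 and 2 were the lowest. Efnb2, a marker of arterial endothelium and the partner of Ephb4, had normalized counts of 4249, 4615, 4737, 4978 and 5309 across normal lungs 1 to 5, and ran in the tumors from 150.0 to 655 around a median of 499.7. Its log2 fold change was -3.50 ± 0.32 (SE, with adjusted p = 7.38e-07 in limma). Efnb1 had a normal range of 2974 to 3839.8 against a tumor range of 334 to 719 (median 541), a log2 fold change of -2.67 with an SD of 0.38 log2 units among tumors.

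The 14 Eph receptors divided into 7 called higher (50% against 24% of all genes), 5 lower (35.7% against 24.5%) and 2 not called. Epha5, a neuronal receptor of ephrin-A ligands, had normalized counts of 2.58, 0, 6.46, 1.41 and 0 across normal lungs 1 to 5, and ran in the tumors from 33.4 to 1308 around a median of 429.7. Its normal lung values rested on few reads, and its log2 fold change was 7.18 ± 0.79 (SE, with adjusted p = 4.35e-06 in limma). Epha8 had normalized counts of 0, 0, 8.08, 0 and 5.75 across normal lungs 1 to 5, and ran in the tumors from 127 to 611 around a median of 176. The Epha8 log2 fold change was 6.83 ± 0.69 (SE, with adjusted p = 2.04e-06 in limma), against normal lungs with few or no reads. These fitted values depend on the pseudocount: at 0.1 they were 8.76 for Epha5 and 8.89 for Epha8, and with the Y-linked covariate 6.21 and 5.78. Epha10, which lacks kinase activity, was at or under 3 reads in all normal lungs and had a tumor range of 22.8 to 51.2 (median 35.2). Against the 3-read floor of the shallowest normal lung, the mean of the tumors was at least 7.54-fold higher for Epha10. Epha6 was low in all samples, with at most 1.62 in a normal lung and 8.76 in a tumor, and its call (log2 fold change 1.66) rests on few reads.

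The EphA receptors that were lower include those best known from epithelia. Epha2, a receptor well known from epithelial cells and their cancers, had normalized counts of 1796, 1181, 1209.7, 1236 and 1777 across normal lungs 1 to 5, and ran in the tumors from 46.6 to 204 around a median of 106. No tumor overlapped normal lung, and the log2 fold change was -3.85 ± 0.38 (SE, with adjusted p = 1.62e-06 in limma). Epha1 had normalized counts of 591, 499, 241, 436 and 696 across normal lungs 1 to 5, and ran in the tumors from 30.7 to 125 around a median of 53.9. Epha1 changed by -2.96 ± 0.39 (SE, with adjusted p = 2.15e-05 in limma). Its exons overlap those of Zyx. Epha4 had a normal range of 388 to 723 against a tumor range of 14.3 to 494 (median 63.9), with a log2 fold change of -2.82 (-1.83 in edgeR), and tumor 7 alone lay within the normal range.

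Among EphB receptors, Ephb2, a receptor of ephrin-B ligands in axon tracts and in the intestinal crypt, had normalized counts of 85.1, 48.4, 105, 60.7 and 159.8 across normal lungs 1 to 5, and ran in the tumors from 2619 to 7008 around a median of 4025. The tumors were 47.8-fold higher on average, and the log2 fold change was 5.61 ± 0.31 (SE, with adjusted p = 6.71e-09 in limma), with an SD of 0.51 log2 units among tumors. Ephb1 had normalized counts of 20.6, 11.8, 27.5, 7.05 and 32.2 across normal lungs 1 to 5, and ran in the tumors from 34.0 to 408 around a median of 197. Tumor 5 came closest to normal lung, and Ephb1 changed by 3.14 ± 0.59 (SE, with adjusted p = 0.000426 in limma). Ephb4, the venous receptor of ephrin-B2, had normalized counts of 3116, 2991, 3559.6, 3477 and 3760.4 across normal lungs 1 to 5, and ran in the tumors from 106 to 639 around a median of 309. Like its ligand it was lower, with a log2 fold change of -3.48 ± 0.36 (SE, with adjusted p = 2.15e-06 in limma). Exons of Ephb4 overlap Zan. Ephb3 had a normal range of 795 to 1283 against a tumor range of 1064 to 2744 (median 2403), with a log2 fold change of 1.03 at the limit for a call. Across alternatives it ran from 0.96 to 1.35, and the call was lost without normal lung 2 or 3 or tumor 1, 3, 4, 5 or 6. Ephb6, a receptor without kinase activity, was just short of that limit at 0.93, and 9 of 23 alternatives called it higher, with values from 0.73 to 1.48 over all of them.

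Promoter windows were compared because members moved in opposite directions within a family. RefSeq windows from 250 bases before to 50 bases after the start (GRCm38.p6) were found for 58 of the 68 members, in 74 windows. The GC box GGGCGG, searched on both strands, was in 53 of 74 member windows (71.6%) and in 35.9% of all 32544 windows. The median GC content was 64.3% in member windows and 53% in all windows. The GC box was in 14 of 20 windows of members called higher, 20 of 28 of members called lower and 19 of 25 of members not called. The E-box CAGCTG was in 6 of the 20, 2 of the 28 and 2 of the 25, against 16.4% of all windows. The 6 belonged to Epha6, Epha10, Ephb3, Plxnb3, Sema4g and Sema6c. Of these, Ephb3 and Plxnb3 lost their calls in several alternatives and the call of Epha6 rests on few reads. TATAAA was in 0 of 20, 2 of 28 and 0 of 25, against 13.6%. TTCAGCACC, one end of the RE1 element that the repressor REST binds, was in 0 of 74 member windows and 0.372% of all windows. These were also searched on both strands. A match to these letters does not show that a factor binds there. The windows of Efna5 (chr17:62881268-62881567, minus strand) and Epha5 (chr5:84417333-84417632, minus strand), a ligand and a receptor that were higher, and of Sema3c (chr5:17574566-17574865, plus strand), the largest decrease, are shown 5′ to 3′ on the strand of the gene, with GGGCGG or its reverse complement in capitals. They hold 38, 30 and 42 CG dinucleotides, against a median of 19.5 in member windows and 7 in all windows.
Efna5: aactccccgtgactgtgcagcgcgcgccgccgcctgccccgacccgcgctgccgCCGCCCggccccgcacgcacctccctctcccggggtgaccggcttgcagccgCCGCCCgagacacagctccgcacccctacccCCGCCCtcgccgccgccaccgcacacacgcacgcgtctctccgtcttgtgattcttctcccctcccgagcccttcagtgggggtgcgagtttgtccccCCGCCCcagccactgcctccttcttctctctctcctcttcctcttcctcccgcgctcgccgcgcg
Epha5: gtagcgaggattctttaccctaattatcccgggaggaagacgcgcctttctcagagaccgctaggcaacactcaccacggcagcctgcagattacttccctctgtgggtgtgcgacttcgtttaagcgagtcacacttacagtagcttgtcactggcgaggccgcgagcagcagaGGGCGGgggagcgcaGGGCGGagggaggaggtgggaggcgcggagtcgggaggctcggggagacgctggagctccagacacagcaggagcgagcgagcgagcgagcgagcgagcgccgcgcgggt
Sema3c: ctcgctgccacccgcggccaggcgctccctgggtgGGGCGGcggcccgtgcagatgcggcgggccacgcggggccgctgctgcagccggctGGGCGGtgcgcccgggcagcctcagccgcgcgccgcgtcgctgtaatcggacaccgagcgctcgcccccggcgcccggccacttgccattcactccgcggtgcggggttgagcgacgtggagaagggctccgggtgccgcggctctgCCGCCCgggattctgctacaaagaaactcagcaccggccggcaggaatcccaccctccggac

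Slit1 rose in tumor while Slit2 and Slit3 fell. Slit1, the Slit known mainly from the nervous system, had normalized counts of 9.03, 7.53, 21.0, 7.05 and 8.05 across normal lungs 1 to 5, and ran in the tumors from 569 to 5408 around a median of 1701. The tumors were 208-fold higher on average, all of them above normal lung, with a log2 fold change of 7.38 ± 0.46 (SE, with adjusted p = 2.04e-08 in limma). Slit2, a ligand also known from vessels and developing lung, had normalized counts of 1078, 930.0, 761, 714 and 1399 across normal lungs 1 to 5, and ran in the tumors from 29.8 to 221 around a median of 89.8. Slit2 changed by -3.44 ± 0.46 (SE, with adjusted p = 2.76e-05 in limma). The groups were apart for both, in opposite directions. Slit3 had 1326, 835, 1185, 932 and 1966 normalized counts over the 5 normal lungs (1 to 5 in order) and 138, 391, 69.4, 661, 209, 434 and 1422 over the 7 tumors. Tumor 7 lay within the normal range, and the Slit3 log2 fold change of -1.91 ± 0.60 (SE, with adjusted p = 0.0132 in limma) was -1.11 in edgeR, where the call was lost.

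Robo1, a main receptor of the Slits, was higher in tumor. It had normalized counts of 405, 423, 300.4, 396 and 697 across normal lungs 1 to 5, and ran in the tumors from 2131 to 4699 around a median of 3940.1. The Robo1 log2 fold change was 3.06 ± 0.23 (SE, with adjusted p = 1.15e-07 in limma). Every tumor was above every normal lung. Robo2 had a normal range of 631 to 1311 against a tumor range of 398 to 3013 (median 1626). Its log2 fold change of 0.95 ± 0.41 (SE, with adjusted p = 0.061 in limma) was not called. It was called higher in 5 of 23 alternatives, edgeR (1.21) and DESeq2 (1.16) among them, and ran from 0.77 to 1.31 over all of them. Robo3, a regulator of midline crossing, was low in all samples, with at most 9.20 in normal lung and 12.9 in tumors, and was not called.

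In the netrin system the attractive receptor Dcc rose and the ligand Ntn1 fell. Dcc, a netrin receptor that was first found as a gene deleted in colorectal carcinoma, had normalized counts of 1.29, 0, 0, 4.23 and 1.15 across normal lungs 1 to 5, and ran in the tumors from 188 to 4459.6 around a median of 969.7. All normal lungs were at or under 3 reads. Against that floor in the shallowest normal lung, the mean of the tumors was at least 294-fold higher for Dcc, and single tumors lay well below that mean. The fitted log2 fold change of Dcc was the largest of the 67 tested members, at 8.94 ± 0.68 (SE, with adjusted p = 1.28e-07 in limma). That fitted value depends on the pseudocount. Ntn1, the founding attractant, had a normal range of 2541 to 4317 against a tumor range of 102 to 1157 (median 628). The groups did not overlap, and Ntn1 changed by -2.94 ± 0.51 (SE, with adjusted p = 0.000249 in limma). Ntn4, a netrin of basement membranes that took the largest share of the netrins per kilobase in all 12 samples, had normalized counts of 3665, 3799.6, 2831, 3805 and 3550.1 across normal lungs 1 to 5, and ran in the tumors from 1228 to 5130.2 around a median of 4447. Its log2 fold change of -0.08 ± 0.33 (SE, with adjusted p = 0.852 in limma) was not called, and tumors 2 and 7 lay below normal lung while tumors 1, 3, 4, 5 and 6 lay above it. Ntn3, whose exons overlap Tbc1d24 and BC028777, was not called at -0.47.

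The Unc5 receptors, which mediate repulsion by netrins, were split as well. Unc5a had a normal range of 129 to 202 against a tumor range of 427 to 1676 (median 1070.2), with no overlap and a log2 fold change of 2.74 ± 0.28 (SE, with adjusted p = 2.03e-06 in limma). A short stretch of its exons overlaps Hk3. Unc5b, the vascular member, had a normal range of 424 to 805 against a tumor range of 300.2 to 833 (median 436), and its log2 fold change of -0.46 ± 0.26 (SE, with adjusted p = 0.145 in limma) was not called. Unc5c was called lower at -1.68, with a normal range of 369.6 to 533 against a tumor range of 14.3 to 356 (median 206). That call was lost in 7 of 23 alternatives, among them equal totals (-1.48), edgeR (-1.12), DESeq2, the Y-linked covariate, and leaving out normal lung 1, 2 or 5. Its exons overlap Gm15688.

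**Figure D3:**
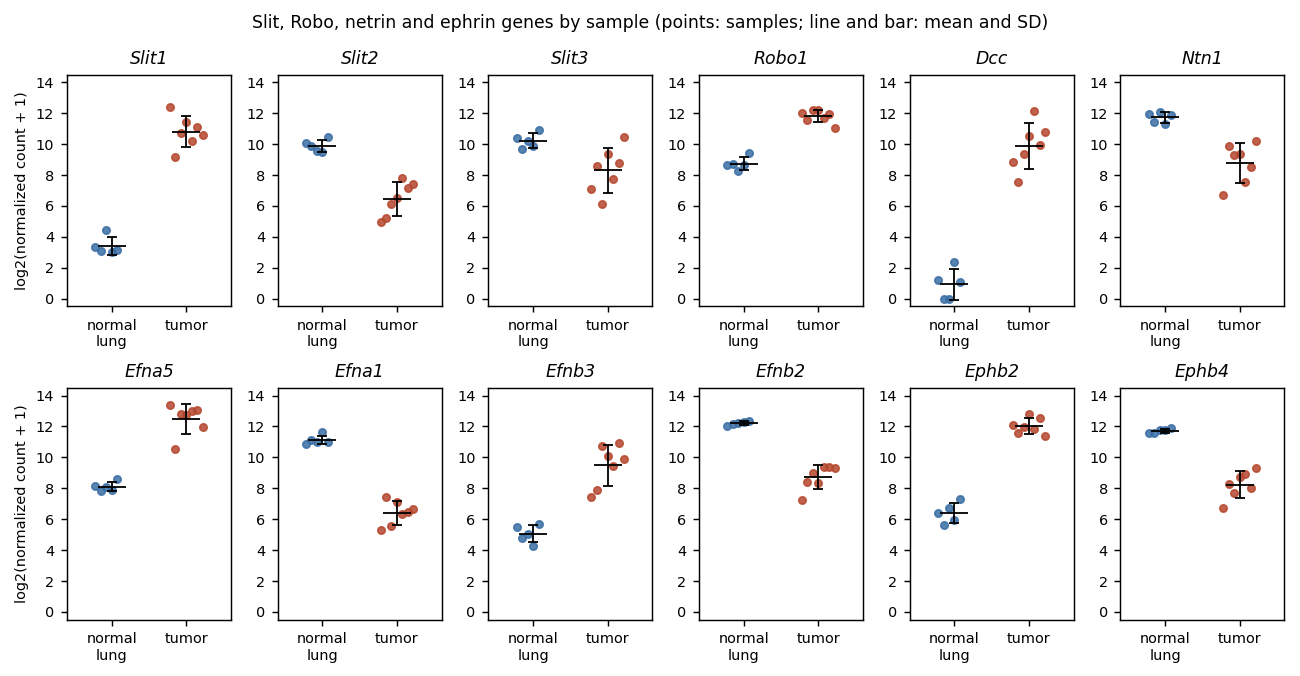
Log2(normalized count + 1) (y axis) of 12 Slit, Robo, netrin, ephrin and Eph genes in the 5 normal lungs (blue) and 7 tumors (red); points are samples, and the line and bar give the mean and SD. Slit1, Robo1, Dcc, Efna5, Efnb3 and Ephb2 sit higher in all tumors than in any normal lung, and Slit2, Ntn1, Efna1, Efnb2 and Ephb4 lower.

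Within several families the leading gene was another one in tumor than in normal lung. To compare genes of a family, each normalized count was divided by the length of the annotated exons in kilobases and given as a share of the family sum in the same sample. That length joins the exons of all annotated transcripts of a gene, so shares and rankings depend on the annotation. Slit1 took 0.773% ± 0.455 over the normal lungs (SD, n = 5), against 78.4% ± 17.1 over the tumors (SD, n = 7). Slit3 led the Slits in all 5 normal lungs and Slit1 in all 7 tumors. The share of Efna5 among ephrin-A ligands was 4.78% ± 1.48 over the normal lungs (SD, n = 5), against 81.9% ± 10.6 over the tumors (SD, n = 7), whereas that of Efna1 was 82.3% ± 3.20 and 4.10% ± 4.80. Efna1 led in all 5 normal lungs and Efna5 in all 7 tumors. The ephrin-A sum itself was 1502 ± 271 per kilobase over the normal lungs (SD, n = 5), against 1958 ± 787 over the tumors (SD, n = 7), a difference smaller than the spread among tumors.

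Ephb4 led the EphB receptors in all 5 normal lungs, at 78.6% ± 3.22 of the family sum (SD, n = 5). In tumors Ephb2 led in 4 and Ephb3 in 3, and Ephb4 took 9.85% ± 7.11 (SD, n = 7). The EphB sums differed by less than the spread among tumors, at 928 ± 91.9 and 853 ± 217 per kilobase. Robo2 led the Robo receptors in all 5 normal lungs and Robo1 in all 7 tumors, where Robo1 took 57.3% to 88.2. Nrp1 led in all 5 normal lungs and in tumor 1, and Nrp2 in the other 6 tumors. Efnb3 led the ephrin-B ligands in 5 of 7 tumors, and Efnb1 in tumors 1 and 2 and in all normal lungs. Before division by length, Efnb2 was above Efnb1 in normal lung, at 4249 to 5309 against 2974 to 3840 normalized counts. Epha2 led the EphA receptors in all normal lungs, and in tumors Epha8 led in 4, Epha5 in 2 and Epha4 in 1. The EphA sum was 423 to 712 per kilobase in normal lung and 72.1 to 230.2 in tumors.

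**Figure D4:**
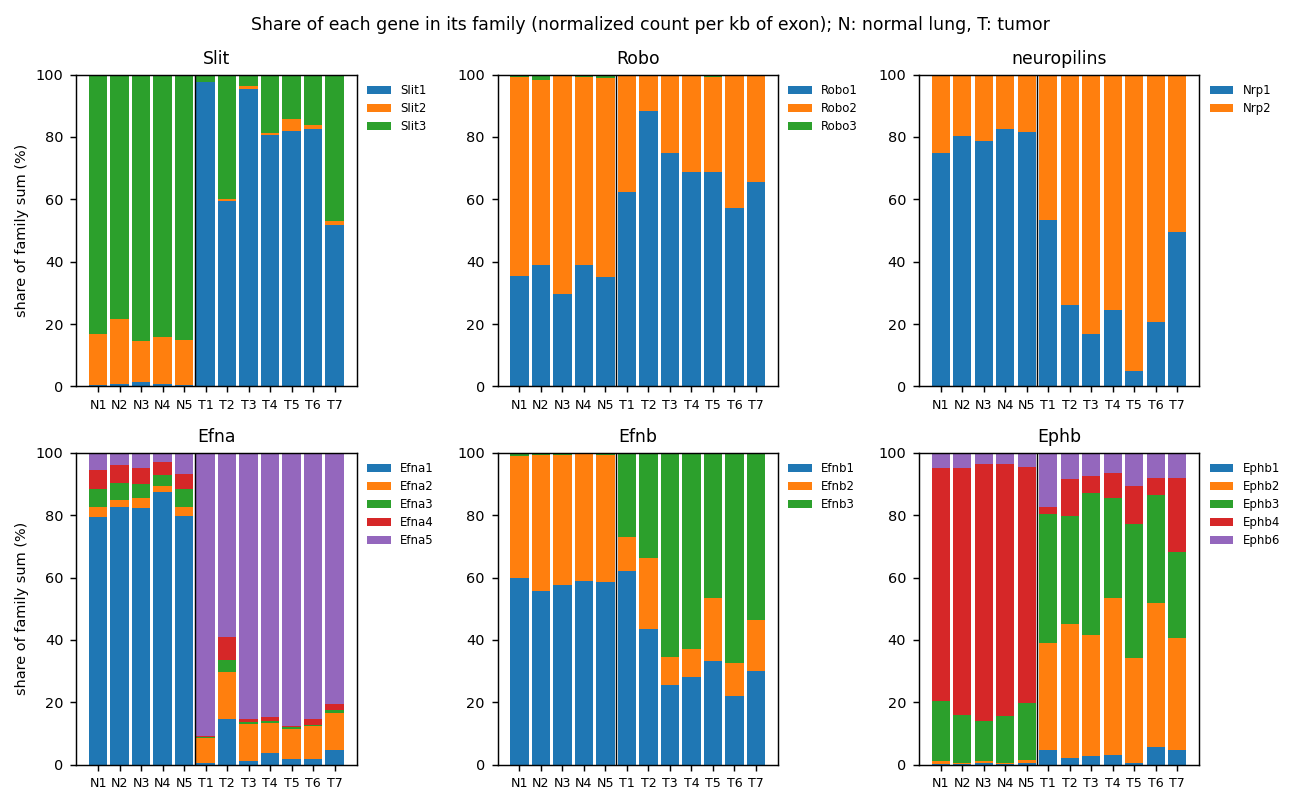
Share of each gene in its family's summed normalized count per kilobase of exon (y axis, %) in normal lungs 1 to 5 (N) and tumors 1 to 7 (T), for 6 families; each bar adds to 100% and the vertical line parts the groups. Slit1, Robo1 and Efna5 take the largest share in all 7 tumors and in no normal lung.

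The tumors differed most among themselves in Epha7, Unc5d, Sema4a, Epha3 and Sema5a. Epha7, an EphA receptor of the developing cortex, had 288, 251, 255, 254 and 409 normalized counts over the 5 normal lungs (1 to 5 in order) and 0, 4.77, 28.8, 75.4, 289.6, 299 and 110.2 over the 7 tumors. Tumors 5 and 6 were within the normal range and tumor 1 was at 0. The log2 fold change of -2.89 ± 1.21 (SE, with adjusted p = 0.0509 in limma) was not called. Leaving out tumor 5, 6 or 7, averaging or correlating tumors of 1 title number, or adding the Y-linked covariate gave a call (-3.38 without tumor 5). The other 17 alternatives gave none, and the value was -1.10 in edgeR, -1.14 in DESeq2 and -2.02 without tumor 1, with an adjusted p of up to 0.347 over all 23 (edgeR, DESeq2 or limma). Unc5d had 58.0, 68.8, 16.2, 63.5 and 107 normalized counts over the 5 normal lungs (1 to 5 in order) and 15.2, 233, 357, 556, 1673, 2435 and 728 over the 7 tumors. Tumor 1 lay below the normal lungs and the other 6 tumors above them. Unc5d was called higher at 2.93 ± 0.99 (SE, with adjusted p = 0.0198 in limma), and the call was lost when same-numbered tumors were averaged (2.02), with the Y-linked covariate (1.80) and without normal lung 3 (2.52).

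Sema4a had 1438, 1255, 1492, 1213 and 1248 normalized counts over the 5 normal lungs (1 to 5 in order) and 109.5, 101, 8.92, 44.0, 72.8, 302 and 1665 over the 7 tumors. Tumor 7 was above all normal lungs and the other 6 tumors below them. The log2 fold change of -3.60 ± 0.90 (SE, with adjusted p = 0.00358 in limma) became -1.68 in edgeR, where the call was lost, and -4.25 without tumor 7. DESeq2 gave no adjusted p for Sema4a, so 22 alternatives tested it. Epha3 had 135, 164, 128, 100.2 and 194 normalized counts over the 5 normal lungs (1 to 5 in order) and 12, 44.1, 0.991, 16.2, 60.7, 42.5 and 172 over the 7 tumors, again with tumor 7 alone in the normal range. It was called lower at -2.42 ± 0.83 (SE, with adjusted p = 0.0221 in limma), but not in edgeR (-1.22), and was -1.79 without tumor 3. Sema5a had 645, 595, 422, 512 and 1025 normalized counts over the 5 normal lungs (1 to 5 in order) and 51.9, 72.7, 704, 542, 954, 896 and 741 over the 7 tumors. Tumors 1 and 2 were far below normal lung and the other 5 within its range, and the log2 fold change of -0.73 ± 0.72 (SE, with adjusted p = 0.396 in limma) was not called, nor was it with same-numbered tumors averaged (-1.52) or with the Y-linked covariate (-1.55).

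**Figure D5:**
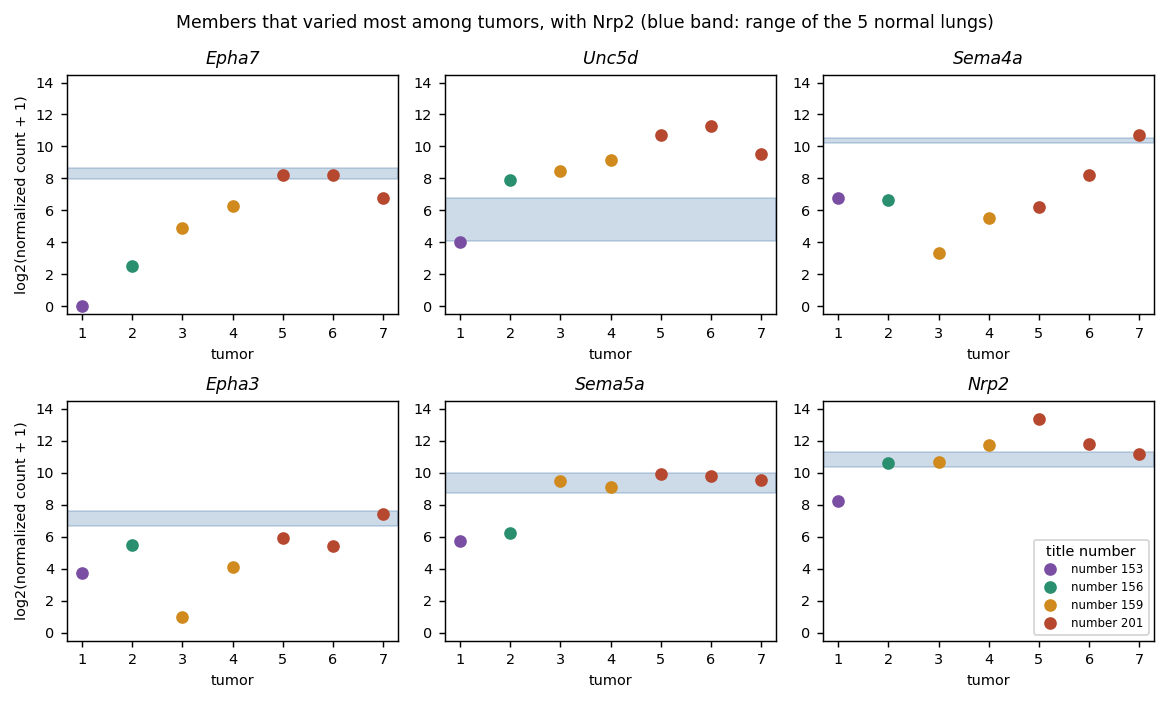
Log2(normalized count + 1) (y axis) of the 5 members with the largest SD among tumors at a mean log2 value of at least 4, and of Nrp2, in tumors 1 to 7 (x axis), colored by the number in the title; the blue band is the range of the 5 normal lungs. Epha7 ranges from 0 in tumor 1 to the normal range in tumors 5 and 6, and tumor 7 is the only tumor within or above the band in Sema4a and Epha3.

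Tumor 7 was the highest tumor in 15 of the 29 members called lower (51.7%), and in 55.1% of all 5805 genes called lower. It was the lowest tumor in 7 of the 22 members called higher (31.8%), as was tumor 2, and in 42.2% of all 5686 genes called higher, tumor 2 in 21.1%. In tumor 7 the summed neuroendocrine markers were at 34114, the lowest of the 7 tumors, and 7 of the 8 genes of that list were lowest there. It was the highest tumor in 9 of the 10 endothelial markers, Vwf being the exception, and in all 9 leukocyte markers. Its summed leukocyte markers were at 17938, against at most 5245 in the other tumors and 86088 to 168054 in normal lung. Its summed heart muscle markers were at 36923, against at most 2646 in the other tumors and 202 to 3709 in normal lung. For the 8 fibroblast and mural markers the values were 35791, at most 23722, and 13146 to 29602. Of 6 Schwann cell and nerve markers, 1 was higher, 1 lower and 4 were not called, with sums of 2155 to 2910.4 per normal lung and 2087 to 5707 per tumor. The part of other tissue in the members' values was not tested. Without tumor 7, 22 members were called higher and 30 lower (24.9% and 26.5% of all genes).

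The wider axon guidance machinery was followed in a list of 70 further genes, of which 67 were in the table and all 67 were tested. Of these, 23 were called higher, 18 lower and 26 were not called, so that 61.2% were called against 48.5% of all genes. Among 18 further ligands, receptors and co-receptors 8 were higher and 5 lower (72.2% called). Cntn2, an adhesion molecule of early axons, had at most 6.46 normalized counts in a normal lung and at least 65.5 in a tumor. Its fitted change of 7.03 ± 0.60 (SE, with adjusted p = 3.59e-07 in limma) depends on the pseudocount. The cell adhesion receptors Dscam and Nrcam changed by 3.90 and 2.21. Robo4, an endothelial relative of the Robo receptors, changed by -3.29 ± 0.40 (SE, with adjusted p = 1.12e-05 in limma), from 1034 ± 128 to 125 ± 78.9 normalized counts (SD, n = 5 and 7). Ntng2, Rgmb, Flrt2 and Lrrc4c were lower as well (-2.55, -2.51, -1.82 and -2.63). Neo1, a netrin receptor related to Dcc, was not called (0.40), nor were Cntn1 (0.52) and Cntn4 (0.16), relatives of Cntn2.

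Of 45 cytoplasmic effectors 13 were higher, 13 lower and 19 were not called, so that 57.8% were called against 48.5% of all genes. The collapsin response mediators, which carry semaphorin signals to the cytoskeleton, were uneven. Dpysl4 ran from 0 to 4.60 normalized counts over the normal lungs, while the tumors had 541 to 1448, a fitted change of 8.63 ± 0.46 (SE, with adjusted p = 5.29e-09 in limma) that likewise depends on the pseudocount. Crmp1 changed by 6.30 and Dpysl5 by 3.97, while Dpysl2 (0.16) and Dpysl3 (-0.14) were not called. Pak3, a kinase downstream of Rac, rose from 60.4 ± 29.0 to 2699.9 ± 1014 normalized counts (SD, n = 5 and 7), a log2 fold change of 5.47 ± 0.33 (SE, with adjusted p = 1.39e-08 in limma). Cdk5r1, the neuronal activator of Cdk5, changed by 5.35, whereas Cdk5 itself was not called (0.43). Srgap3, of a family that links Robo receptors to small GTPases, changed by 3.88, Srgap1 by -1.27, and Srgap2 was not called (-0.12). Rnd1 and Rras, small GTPases that plexins engage, changed by -3.56 and -3.51. The actin-binding proteins Ablim1 and Ablim3 changed by -2.83 and -3.44. Of 4 genes of receptor processing and anchoring, Grip1 and Grip2, scaffolds of ephrin-B ligands and Eph receptors, were higher (2.71 and 3.15), and Adam10 and Sdcbp were not called.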

How the data were processed

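RNA from 5 normal lungs and 7 tumors was sequenced after poly-A selection as paired ends, per the labels' protocols. The authors deposited a signal per gene and sample, namely read counts that were already normalized. The submitters' processing notes name featureCounts, DESeq2 and the build GRCm39, without versions. The aligner, annotation and use of strand are not given in the sources used here. In every column 100% of the values above 0 were whole multiples of the smallest one, within 0.01 reads, and these multiples gave the depth. Symbols and exon lengths came from GENCODE M21 (GRCm38), which named 29982 of the 30399 identifiers. Exons of 10 of the 68 members overlap another listed gene, so their counts are uncertain.

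All 23674 genes with a mean of at least 1 entered a linear model of log2(value + 1) in limma 3.58.1 under R 4.3.3 (lmFit, then eBayes with trend), with p-values adjusted by Benjamini-Hochberg over all of them. Count tests on recovered reads were run as alternatives with edgeR 4.0.16 and DESeq2 1.42.0 on 11 samples. Tumor 3 was left out there, because a check of units did not accept its values as recovered reads. Its size factor is 1.01, so 1 of its reads is worth nearly 1 unit. Its values were whole multiples as in the other columns. Counts were simulated for this comparison (23386 genes) and tested in limma at an adjusted p under 0.05, without the fold change limit. This found 99 of 100 genes changed by 2 on the log2 scale, 30 of 100 changed by 1, and 7 unchanged genes. The simulation gave all genes the same dispersion (spread beyond counting error), a fixed value not estimated from these data. It did not model shared title numbers. The shares found therefore need not hold for members that varied widely among tumors, such as Dcc with an SD of 1.47 log2 units. Full statistics are given for the 12 largest called changes in each direction among members whose groups are fully apart and whose mean log2 value is 4 or more, the member with the highest mean in each family, and the 5 most variable members among tumors. Other members are given by ranges, except that Ntn1, Nrp2, Plxnb1, Robo2, Slit3, Unc5a and Unc5b are given in more detail, a choice made after their values were seen. The members and lists were chosen with earlier results of these data known. Sums of lists are sums of normalized counts. Flrt1, Flrt3, Lrrc4, Itgam and Actc1 of the lists were not analysed here, and some marker genes are not reported by name. Python 3.11.15 was used for tables and figures.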

Additional observations from a re-analysis of the deposited data

Results flagged for a closer look

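For the 32 members given in full, the highest and lowest log2 value within each group was checked with Dixon's ratio at its 95% level, which makes 64 checks. A value lay beyond that level in 3 checks, where about 1 in 20, or 3.2, are expected by chance. Normal lung 5 had the highest Epha7 value of its group, 409 normalized counts against 251 to 288 in the others. Normal lung 3 had the lowest Ntn4 value, 2831 against 3550.1 to 3805. The same library, the shallowest of the series, had the highest Slit1 value of the normal lungs, 21.0 against 7.05 to 9.03, all of them far under the lowest tumor at 569.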

How the results depend on the processing

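The counts of called members stayed within 1.5 times the reported ones under all 23 alternatives. Members called higher numbered 21 to 25 under the 11 alternatives of processing and 20 to 23 when 1 sample was left out (22 reported), and members called lower 25 to 30 and 28 to 30 (29 reported). In the wider list the higher genes numbered 23 to 25 and 22 to 24 (23 reported) and the lower genes 15 to 19 and 18 throughout. The share of all genes called ran from 18.8% to 27.5% for higher and from 19.1% to 26.7% for lower. Of the 51 called members, 43 were called in every alternative that tested them, 8 lost the call in at least 1, and 0 reversed. Scaling all columns to equal totals moved the median log2 fold change of all genes from 0.04 to 0.24, and gave 25 members higher and 28 lower. Signs changed in 6 of the 16 members that were not called, and the cause was not tested. Nrp2 (reported 0.17) was -0.38 with same-numbered tumors averaged, -0.060 with the title number as a random effect, -0.93 with the Y-linked covariate and -0.22 to 0.64 with 1 sample left out. Ntn4 (-0.08) was 0.13 under equal totals, 0.040 after quantile normalization, 0.12 in edgeR, 0.065 in DESeq2, 0.0019 without the trachea-titled tumors, 0.26 with the Y-linked covariate and -0.18 to 0.16 with 1 sample left out. Plxnc1 (-0.09) was 0.12 under equal totals, 0.053 in edgeR and -0.19 to 0.090 with 1 sample left out. Robo3 (-0.13) was 0.028 under equal totals, 0.024 in DESeq2, 0.014 without the trachea-titled tumors, 0.099 with the Y-linked covariate and -0.40 to 0.095 with 1 sample left out. Sema4b (-0.04) was 0.17 under equal totals, 0.049 in edgeR and -0.11 to 0.018 with 1 sample left out. Sema4d (0.27) was -0.0035 with the Y-linked covariate. No paired analysis was possible because the labels give normal lungs and tumors no shared title number. Depth limits Epha6, Ntn5, Robo3 and the normal lung values of Dcc, Epha5, Epha8, Epha10 and Sema5b, which rest on few reads.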
